A study of Mus musculus with 27 samples.

Results

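Shox2, Isl1, Hcn4 and Vsnl1 are genes of the sinus node, the pacemaker at the entrance of the right atrium, and they are described here across hearts of mouse embryos at E11.5. They were picked by symbol from earlier results of the same 27 arrays, in which Shox2 and Vsnl1 had been printed among the lower values of Brg1+/-, Tbx5+/- and Tbx5+/- Brg1+/- hearts against wild type. Their levels and differences are therefore a description, and the adjusted p-values, given as the fit across all genes returned them, are no independent evidence for the choice. The 4 genes stand among 19935 genes with a named probe set, each has 1 probe set on the array, and all 4 were tested, since no filter on low values was applied.

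The study asked how the dosage of a chromatin remodelling complex bears on the work of cardiac transcription factors, and compared heterozygous deletions, alone and combined. Total RNA of E11.5 hearts from a mixed C57Bl/6/BLKSW background was hybridised to 27 Affymetrix arrays, 1 per sample. The groups were wild type (6 arrays), Brg1+/- (6), Tbx5+/- (5), Nkx2-5+/- (4), Tbx5+/- Brg1+/- (3) and Nkx2-5+/- Brg1+/- (3). Brg1, listed on the array under its gene symbol Smarca4, drives BAF chromatin remodelling as an ATPase, and Tbx5 and Nkx2-5 are cardiac transcription factors. The labels do not say whether the arrays of a group come from separate embryos or litters, so a p-value measures only the spread between these samples. The labels name the heart as the tissue and no dissected part of it, so a sinus node gene was measured amid the RNA of all other heart cells, and fewer cells that express a gene cannot be told apart from less of its RNA per cell.

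The sinus node forms from progenitor cells at the venous pole of the heart tube. In its cells Shox2 and Isl1, both homeodomain transcription factors, and Tbx3 keep the pacemaker programme active, and Shox2 holds down Nkx2-5, which drives the programme of the working chamber muscle. Hcn4 encodes the main channel of the pacemaker current, and Vsnl1 encodes visinin-like 1, a calcium sensor of the neuronal calcium sensor family whose RNA is enriched in the sinus node. None of the 4 is unique to it: Isl1 also marks second heart field progenitors and developing neurons, and Hcn4 is expressed more widely in the early heart than in the adult.

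The labels were checked on the targeted genes before the members were read. Smarca4 averaged 10.07 ± 0.07 (SD, n = 6) on the log2 scale in wild type and 9.32 ± 0.13 (SD, n = 6) in Brg1+/-, and Nkx2-5 averaged 9.59 ± 0.34 (SD, n = 6) in wild type and 8.74 ± 0.44 (SD, n = 4) in Nkx2-5+/-. Tbx5 averaged 8.80 ± 0.17 (SD, n = 5) in Tbx5+/-, above the wild-type mean of 8.57, and where its probes lie relative to the deleted part is not given in the sources used here, so it checks nothing. The Smarca4 signal went against the label on 2 arrays: Nkx2-5+/- replicate 3 had the low value of 9.57 and Tbx5+/- Brg1+/- replicate 3 the high value of 10.01. The Nkx2-5 signal of the library labelled Nkx2-5+/- replicate 3 was 9.40, inside the wild-type range of 9.17 to 9.96. The other arrays of that label read 8.475, 8.477 and 8.631. Several estimates of the members and the counts of the sinus node list are given with and without these 2 libraries. The counts of the other lists are given with all arrays. Heart muscle lists averaged between 8.88 and 9.78 (6 atrial genes) and between 9.19 and 10.45 (7 ventricular genes) on all 27 arrays, whose medians lay between 6.18 and 6.33.

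The RefSeq windows of 250 bases before the annotated start sites are shown for Shox2 and Vsnl1, the members that passed the threshold in the Nkx2-5 by Brg1 comparison given below, and for Hcn4, whose window alone among those of the members held a match to a motif of the tested cardiac factors. They are read from mouse build GRCm38.p6, 5′ to 3′ on the strand of the gene, in lower case with motif matches in capitals. The Shox2 window lies at chr3:66981772-66982021 on the minus strand, the Hcn4 window at chr9:58822699-58822948 on the plus strand and the Vsnl1 window, that of the first of its 2 start sites, at chr12:11436579-11436828 on the minus strand.
Shox2: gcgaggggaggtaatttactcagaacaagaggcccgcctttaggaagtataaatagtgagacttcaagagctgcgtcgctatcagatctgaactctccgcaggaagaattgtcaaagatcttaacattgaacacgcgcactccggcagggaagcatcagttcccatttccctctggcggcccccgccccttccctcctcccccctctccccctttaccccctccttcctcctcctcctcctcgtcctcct
Hcn4: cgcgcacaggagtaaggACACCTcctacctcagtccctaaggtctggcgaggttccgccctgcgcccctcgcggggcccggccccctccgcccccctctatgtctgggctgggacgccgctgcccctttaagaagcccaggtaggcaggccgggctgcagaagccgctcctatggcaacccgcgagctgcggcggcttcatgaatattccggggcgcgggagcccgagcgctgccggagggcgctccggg
Vsnl1: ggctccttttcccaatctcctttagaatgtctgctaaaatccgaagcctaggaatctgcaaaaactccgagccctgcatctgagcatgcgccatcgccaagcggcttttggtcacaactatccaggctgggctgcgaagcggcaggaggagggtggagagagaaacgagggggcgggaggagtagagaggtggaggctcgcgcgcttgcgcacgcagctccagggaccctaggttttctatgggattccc
Searched on both strands were AGGTGT (T-box), TNAAGTG (NK2 homeodomain), AGATAA (for GATA factors) and TAATTA (homeodomain, its own reverse complement). The capitals in the Hcn4 window are ACACCT, the reverse complement of the T-box letters. Over 32851 mouse promoter windows of the same length, 11.8% held the T-box letters, 10.1% the NK2 letters, 9.99% the GATA letters and 4.84% the homeodomain letters. The other windows of the 4 genes held none of these letters, which says nothing about binding outside them. GC content was 55.6% in the Shox2 window, 71.2% in the Hcn4 and Isl1 windows and 58.0% in the Vsnl1 window shown, against a median of 52.4% over all windows. The Isl1 window held 33 CpG dinucleotides, the Hcn4 window 25, the Vsnl1 window 14 and the Shox2 window 11, against a median of 6. The window of the other Vsnl1 start site, with 41.6% GC and 4 CpG dinucleotides, was below both medians.

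Shox2, the transcription factor that sets up the sinus node, had its highest mean in wild type and its lowest in Nkx2-5+/- hearts, both ends of the order resting on 1 array. All values below are deposited log2 signals after robust multi-array averaging (RMA), on which a difference of 1 is a doubling of signal. In wild type the lowest, median and highest Shox2 values were 6.68, 6.88 and 7.68, and in Brg1+/- they were 5.95, 6.28 and 6.87. The Tbx5+/- arrays read 6.49, 5.94, 6.38, 6.56 and 6.34, and the Nkx2-5+/- arrays read 5.46, 6.41, 6.67 and 6.12. All 9 of these single heterozygotes lay below the lowest wild-type array, as did 5 of 6 Brg1+/- arrays. Among the compound heterozygotes, Tbx5+/- Brg1+/- arrays read 6.28, 6.33 and 6.91, and Nkx2-5+/- Brg1+/- arrays read 6.88, 6.73 and 6.88. The 3 arrays of Nkx2-5+/- Brg1+/- thus sat inside the wild-type range, while 2 of 3 Tbx5+/- Brg1+/- arrays were below it, the exception being the library whose Smarca4 signal went against its label. Group means in descending order were wild type 6.97 ± 0.36 (SD, n = 6), Nkx2-5+/- Brg1+/- 6.83 ± 0.09 (SD, n = 3), Tbx5+/- Brg1+/- 6.51 ± 0.35 (SD, n = 3), Tbx5+/- 6.34 ± 0.24 (SD, n = 5), Brg1+/- 6.33 ± 0.33 (SD, n = 6) and Nkx2-5+/- 6.16 ± 0.52 (SD, n = 4). Each pair of neighbours in this order differed by less than the larger of their SDs, and their ranges overlapped. Without wild-type replicate 6 the Nkx2-5+/- Brg1+/- mean was 0.002 above that of wild type, and without Nkx2-5+/- replicate 1 the Nkx2-5+/- mean was 0.57 below wild type, less far than Brg1+/- (0.64) and Tbx5+/- (0.63).

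Isl1, the LIM homeodomain factor of progenitors and of the sinus node, showed no separation of any genotype. Wild-type values ran from 6.28 through a median of 6.63 to 6.92, and Brg1+/- values from 5.70 through 6.46 to 7.30. The Tbx5+/- arrays read 6.56, 6.21, 5.97, 6.48 and 6.79, and those of Nkx2-5+/- 6.25, 6.33, 6.79 and 6.50. Tbx5+/- Brg1+/- hearts gave 6.56, 6.72 and 6.49, and Nkx2-5+/- Brg1+/- hearts 6.16, 6.71 and 6.37. The ranges of every genotype overlapped that of wild type. In descending order the means were wild type 6.62 ± 0.26, Tbx5+/- Brg1+/- 6.59 ± 0.12, Nkx2-5+/- 6.47 ± 0.24, Brg1+/- 6.43 ± 0.54, Nkx2-5+/- Brg1+/- 6.41 ± 0.28 and Tbx5+/- 6.40 ± 0.32 (SD, with the group sizes above). Neighbouring means were 0.009 to 0.12 apart, always less than the larger SD of the pair.

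Hcn4, the pacemaker channel, was high in Nkx2-5+/- Brg1+/- and wild-type hearts and low in the groups without a Nkx2-5 deletion that carried a Brg1 or Tbx5 deletion. The wild-type values had a lowest of 7.24, a median of 7.40 and a highest of 8.66, and the Brg1+/- values 6.98, 7.25 and 7.38. Tbx5+/- arrays were close together at 7.18, 7.23, 7.26, 7.22 and 7.16, whereas Nkx2-5+/- arrays spread over 7.16, 7.52, 7.93 and 7.44. The compound groups lay apart, at 6.75, 7.19 and 7.11 for Tbx5+/- Brg1+/- hearts and at 7.70, 7.73 and 7.62 for Nkx2-5+/- Brg1+/- hearts. All 3 Tbx5+/- Brg1+/- arrays and 4 of 5 Tbx5+/- arrays were below the lowest wild-type array, against 2 of 6 for Brg1+/-, 1 of 4 for Nkx2-5+/- and 0 of 3 for Nkx2-5+/- Brg1+/-. From high to low the means were Nkx2-5+/- Brg1+/- 7.68 ± 0.06, wild type 7.62 ± 0.53, Nkx2-5+/- 7.51 ± 0.32, Tbx5+/- 7.21 ± 0.04, Brg1+/- 7.20 ± 0.15 and Tbx5+/- Brg1+/- 7.02 ± 0.23 (SD, group sizes as above). No neighbours in this order differed by more than the larger SD. The wild-type SD of 0.53 rests on replicate 6, at 8.66, while the other 5 wild-type arrays lay between 7.24 and 7.63.

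Vsnl1, the calcium sensor, had the same order of group means as Hcn4, though without wild-type replicate 6 the Hcn4 mean of wild type was 0.10 below that of Nkx2-5+/- while the Vsnl1 mean stayed 0.38 above. Its lowest, median and highest values were 8.48, 8.93 and 9.30 in wild type and 7.85, 8.12 and 8.85 in Brg1+/-. Tbx5+/- arrays gave 8.48, 8.36, 8.38, 7.999 and 8.11, and Nkx2-5+/- arrays 8.46, 8.50, 8.90 and 8.01. Tbx5+/- Brg1+/- arrays gave 8.01, 7.87 and 8.31, and Nkx2-5+/- Brg1+/- arrays 9.17, 8.87 and 8.82. Below the lowest wild-type array were 5 of 6 Brg1+/- arrays, all 5 of Tbx5+/-, all 3 of Tbx5+/- Brg1+/- and 2 of 4 Nkx2-5+/- arrays, but 0 of 3 Nkx2-5+/- Brg1+/- arrays. Vsnl1 means fell in the order Nkx2-5+/- Brg1+/- 8.95 ± 0.19, wild type 8.92 ± 0.27, Nkx2-5+/- 8.47 ± 0.36, Tbx5+/- 8.27 ± 0.20, Brg1+/- 8.25 ± 0.35 and Tbx5+/- Brg1+/- 8.06 ± 0.22 (SD, group sizes as above). The step from wild type to Nkx2-5+/-, 0.45, was 1.25 times the larger SD of that pair and the ranges still overlapped. The other neighbours differed by less than the larger SD.

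**Figure D1:**
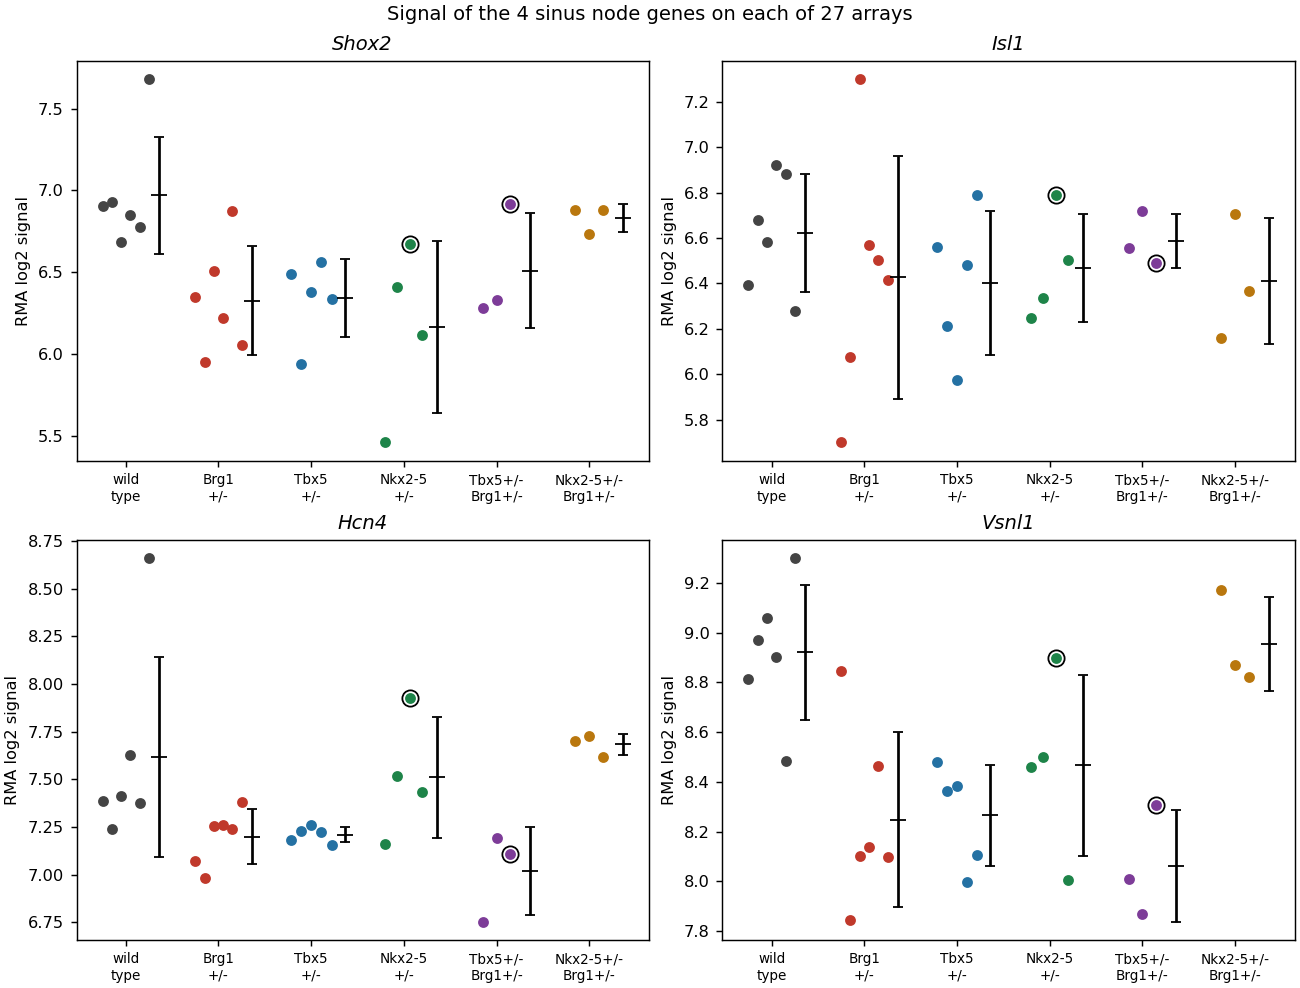
RMA log2 signal of Shox2, Isl1, Hcn4 and Vsnl1 on each of 27 arrays by genotype, each point 1 array, with the group mean (dash) and SD (bar) beside the points; black rings mark the 2 arrays whose Smarca4 signal went against the label. The 3 Nkx2-5+/- Brg1+/- arrays lie within the wild-type range for Shox2, Hcn4 and Vsnl1, and wild-type replicate 6 stands highest for these 3 genes. For Hcn4 and Vsnl1 this rests on that array: Nkx2-5+/- Brg1+/- reaches 7.73 and 9.17, the other wild-type arrays 7.63 and 9.06.

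Against wild type, Brg1 heterozygotes had lower estimates for all 4 genes, none of which passed the threshold. In the limma fit over all 27 arrays, with Benjamini-Hochberg adjustment over all 19935 genes and a threshold of 0.05 on the adjusted p, the log2 difference of Vsnl1 was -0.67 (SE 0.15, 95% interval -0.99 to -0.36, adjusted p = 0.254), a signal 1.59-fold lower. Shox2 stood at -0.64 (SE 0.18, adjusted p = 0.379), Hcn4 at -0.42 (SE 0.16, adjusted p = 0.432) and Isl1 at -0.20 (SE 0.18, adjusted p = 0.734). The fit called 0.01% of all genes in this comparison. Without wild-type replicate 6 the Hcn4 estimate was -0.21. Red blood cell genes were above 0 in 12 of 12 in this comparison (median 0.92) and atrial muscle genes below 0 in 6 of 6 (median -0.36), none of them called. With the red blood cell covariate Vsnl1 was at -0.65 and Shox2 at -0.55.

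Tbx5 heterozygotes gave estimates much like these, from arrays of their own but against the same wild-type arrays. Vsnl1 was at -0.65 (SE 0.16, adjusted p = 1), Shox2 at -0.63 (SE 0.19), Hcn4 at -0.41 (SE 0.17) and Isl1 at -0.22 (SE 0.19), each with a limma adjusted p of 1. The fit called 0% of all genes, with 788 genes at an unadjusted p under 0.05. Hcn4 again moved to -0.20 without wild-type replicate 6. Ventricular muscle genes were above 0 in 7 of 7 here (median 0.28) and epicardial genes below 0 in 6 of 6 (median -0.19), none called. Atrial muscle genes were below 0 in 4 of 6 (median -0.095) and red blood cell genes above 0 in 7 of 12 (median 0.046).

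Nkx2-5 heterozygotes had the one called Shox2 difference from wild type, an estimate lower than those of Brg1+/- and Tbx5+/- hearts with all arrays but not without Nkx2-5+/- replicate 1. Shox2 was 1.75-fold lower (log2 difference -0.81, SE 0.20, 95% interval -1.22 to -0.39, limma adjusted p = 0.018) and was lower than the lowest wild-type array on 4 of 4 arrays. Vsnl1 stood at -0.45 (SE 0.17, adjusted p = 0.0991), Isl1 at -0.15 (SE 0.20, adjusted p = 0.729) and Hcn4 at -0.11 (SE 0.18, adjusted p = 0.8), which turned to 0.10 without wild-type replicate 6. Of the 4 genes 1 was called, where the fit called 7.89% of all genes, and nothing is read from the members' count. Without the 2 arrays against their label Shox2 was at -0.98 (adjusted p = 0.001) and Vsnl1 at -0.60 (adjusted p = 0.0148). Hcn4 was then at -0.25, uncalled. Without Nkx2-5+/- replicate 1, the array with the lowest Shox2 value, the Shox2 estimate was -0.57 (adjusted p = 0.0891), and its call was also lost without replicate 2 (adjusted p = 0.0708) or replicate 4 (adjusted p = 0.0696), and in a fit to the wild-type and Nkx2-5+/- arrays alone (adjusted p = 0.114).

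Red blood cell genes moved with the Nkx2-5 comparison. The 12 measured genes of that list averaged 8.71 on Nkx2-5+/- replicate 3 and between 10.58 and 10.82 on the other 3 Nkx2-5+/- arrays, against 8.18 to 9.82 for wild type, 8.65 to 10.60 for Brg1+/-, 8.19 to 9.69 for Tbx5+/-, 8.52 to 10.04 for Tbx5+/- Brg1+/- and 7.87 to 9.66 for Nkx2-5+/- Brg1+/-. In Nkx2-5+/- against wild type 5 of the 12 rose and the median log2 difference was 1.24, where the fit called 7.89% of all genes. With the mean of this list as a covariate the Shox2 estimate was -0.68 (limma adjusted p = 0.37), and the call was lost. Ventricular muscle genes averaged 10.20 on Nkx2-5+/- replicate 3 and 9.19 to 9.46 on the other 3 Nkx2-5+/- arrays. In wild type they averaged 9.68 to 10.43, and 4 of 7 fell in the comparison. The part of these differences in the Shox2 result was not tested further.

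In Tbx5+/- Brg1+/- hearts Vsnl1 and Hcn4 had their lowest means of the 6 genotypes. Against wild type Vsnl1 was at -0.86 (SE 0.19, 95% interval -1.24 to -0.47, limma adjusted p = 0.606), Hcn4 at -0.60 (SE 0.20, adjusted p = 0.979), Shox2 at -0.46 (SE 0.22, adjusted p = 0.979) and Isl1 at -0.03 (SE 0.22, adjusted p = 0.993). None passed, and the fit called 0% of all genes, with 873 at an unadjusted p under 0.05. Without wild-type replicate 6 Hcn4 was at -0.39. Compared with Tbx5+/- hearts, the compound heterozygotes differed by -0.19 for Hcn4, -0.20 for Vsnl1, 0.17 for Shox2 and 0.19 for Isl1 (adjusted p = 1 for each, limma), again with 0% of all genes called and 494 at an unadjusted p under 0.05. Compared with Brg1+/- hearts, a comparison that shares no array with Tbx5+/- against wild type, Vsnl1 was at -0.19 (95% interval -0.57 to 0.20, adjusted p = 0.793) and Hcn4 at -0.18 (95% interval -0.58 to 0.22, adjusted p = 0.806). That interval does not include the -0.65 seen for Vsnl1 in Tbx5+/- hearts against wild type, but the difference between these 2 effects, 0.47 (SE 0.25, 95% interval -0.04 to 0.97, adjusted p = 1), did not pass. Shox2 stood at 0.18 (adjusted p = 0.827) and Isl1 at 0.16 (adjusted p = 0.848), with 0% of genes called and 1626 at an unadjusted p under 0.05. Without the library whose Smarca4 signal went against its label, Shox2 was at -0.66 against wild type. Its differences from Tbx5+/- and Brg1+/- hearts were then -0.04 and -0.02.

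The Nkx2-5+/- Brg1+/- hearts stood near wild type for Hcn4, Vsnl1 and Shox2, while Isl1 differed about as much as in Brg1+/- hearts (-0.20). Differences from wild type were 0.07 for Hcn4 (95% interval -0.34 to 0.47), 0.03 for Vsnl1 (-0.35 to 0.42), -0.14 for Shox2 (-0.60 to 0.32) and -0.21 for Isl1 (-0.67 to 0.25), with limma adjusted p-values from 0.841 to 0.977 and 0.0351% of all genes called. The interval of Shox2 reaches to near the -0.63 of Tbx5+/- hearts, so it does not show a level equal to wild type. Without wild-type replicate 6 the Shox2 difference was 0.002 and the Hcn4 difference 0.28. Set against Nkx2-5+/- hearts, Shox2 was 1.59-fold higher (log2 difference 0.67, SE 0.24, adjusted p = 0.153) and Vsnl1 1.40-fold higher (0.49, SE 0.20, adjusted p = 0.225), neither past the threshold, with 0.0401% of all genes called. Without the library labelled Nkx2-5+/- replicate 3 both passed, at 0.84 (adjusted p = 0.02) for Shox2 and 0.63 (adjusted p = 0.0418) for Vsnl1 when the other array against its label was left out too. Without Nkx2-5+/- replicate 1 the Shox2 difference was 0.43 (adjusted p = 0.403). In this comparison 12 of 12 red blood cell genes were below 0 with a median of -1.51, 0 of them called, and with their mean as a covariate Shox2 was at 0.53 and Vsnl1 at 0.45 (adjusted p = 0.999 for each). Set against Brg1+/- hearts, the estimates were 0.71 for Vsnl1 (SE 0.19, adjusted p = 0.313), 0.51 for Shox2 (SE 0.22, adjusted p = 0.533), 0.49 for Hcn4 (SE 0.20, adjusted p = 0.518) and -0.02 for Isl1 (adjusted p = 0.994), with 0.0201% of all genes called. Red blood cell genes were below 0 in 12 of 12 here too (median -1.10).

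**Figure D2:**
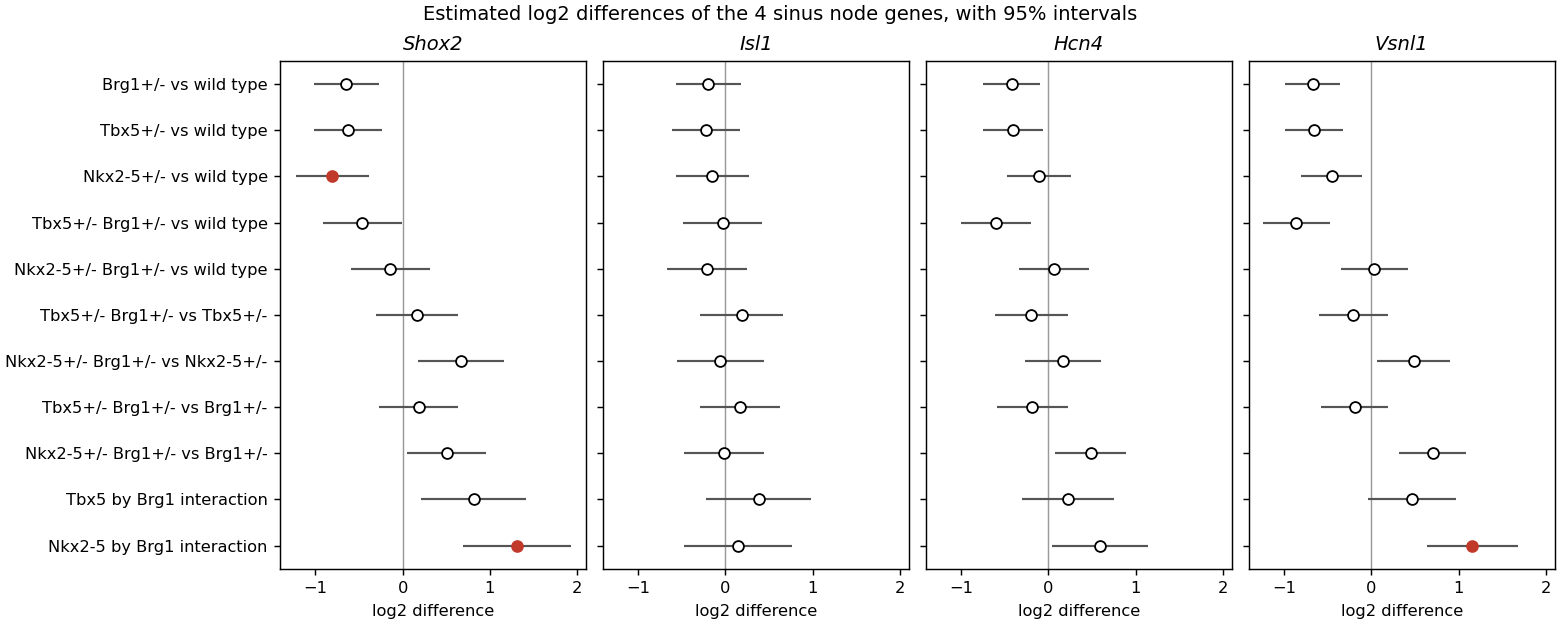
Estimated log2 differences of the 4 genes (points) with 95% intervals (lines) in 9 comparisons of 2 genotypes and in the interactions of Tbx5 and Nkx2-5 with Brg1; filled red points passed an adjusted p of 0.05 and open points did not. The filled points are Shox2 in Nkx2-5+/- against wild type (-0.81) and, in the Nkx2-5 by Brg1 interaction, Shox2 (1.31) and Vsnl1 (1.16).

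The interaction asks whether losing 1 copy of Brg1 went with a different change in Nkx2-5+/- hearts than in hearts with both copies of Nkx2-5. For Shox2 the Brg1 difference was -0.64 on the wild-type background and 0.67 on the Nkx2-5+/- background, and the difference between them was 1.31 (SE 0.30, 95% interval 0.69 to 1.93, limma adjusted p = 0.0203), 2.48-fold. For Vsnl1 the Brg1 differences were -0.67 and 0.49, and their difference was 1.16 (SE 0.25, 95% interval 0.64 to 1.68, adjusted p = 0.0189), 2.23-fold. Hcn4 had -0.42 and 0.17, a difference of 0.59 (SE 0.27, adjusted p = 0.203), which was 0.73 without the 2 arrays against their label (adjusted p = 0.0655), 0.38 without wild-type replicate 6 and called only with array weights (0.68, adjusted p = 0.04). Isl1 had -0.20 and -0.06, a difference of 0.14 (SE 0.30, adjusted p = 0.87). Of the 4 genes 2 were called, where the fit called 4.95% of all genes, and the count is a description of genes picked with results known. The estimates of Shox2 and Vsnl1 stayed above 1 under each of the 31 alternatives, but the calls did not.

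Both calls were lost with the red blood cell list as a covariate, at 1.08 for Shox2 (limma adjusted p = 1) and 1.10 for Vsnl1 (adjusted p = 0.931), a setting in which the fit called 0 genes in all. They were also lost in a fit to the 4 groups compared alone (adjusted p = 0.0505 for each). The red blood cell list moved with this interaction too: 10 of its 12 genes fell, against 4.95% of all genes called, and its median was -2.37. Leaving out Nkx2-5+/- replicate 2, Nkx2-5+/- Brg1+/- replicate 1 or Nkx2-5+/- Brg1+/- replicate 2 also ended both calls, with Shox2 at 1.39, 1.28 and 1.36 (adjusted p = 0.0545, 0.0692 and 0.0816) and Vsnl1 at 1.17, 1.05 and 1.202 (adjusted p = 0.0574, 0.0692 and 0.0666). Without the 2 arrays against their label the interaction was 1.48 for Shox2 (adjusted p = 0.00107) and 1.303 for Vsnl1 (adjusted p = 9.62e-04). With Tbx5 in place of Nkx2-5, the interaction was 0.81 for Shox2 (SE 0.29), 0.47 for Vsnl1 (SE 0.25), 0.38 for Isl1 (SE 0.29) and 0.23 for Hcn4 (SE 0.26), each with an adjusted p of 1, with 0% of all genes called and 606 at an unadjusted p under 0.05. Without Tbx5+/- Brg1+/- replicate 3, whose Smarca4 signal went against its label, the Shox2 interaction with Tbx5 was 0.61. The Tbx5 and Nkx2-5 interactions share the wild-type and Brg1+/- arrays, and the difference between them was not tested.

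**Figure D3:**
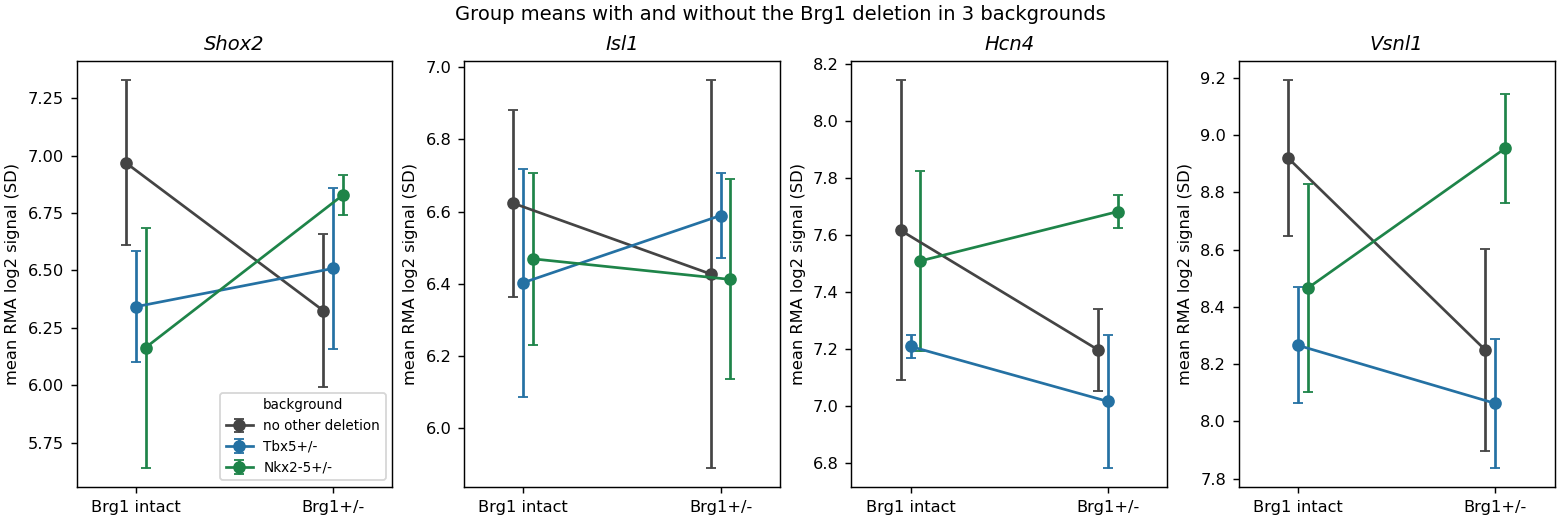
Mean RMA log2 signal (points, bars are SD) of the 4 genes with both copies of Brg1 (left of each panel) and in Brg1 heterozygotes (right), on backgrounds with no other deletion (grey), Tbx5+/- (blue) and Nkx2-5+/- (green). For Shox2 and Vsnl1 the grey line falls by 0.64 and 0.67 while the green line goes up by 0.67 and 0.49.

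Wild-type replicate 6 stood above all 26 other arrays for 3 of the 4 genes. It read 7.68 for Shox2 where the others reached 6.93, 8.66 for Hcn4 where they reached 7.93 and 9.30 for Vsnl1 where they reached 9.17. Isl1, at 6.28, was the lowest of the wild-type arrays instead. Of the 19 measured sinus node and pacemaker genes outside the members, 7 were above all other arrays on it: the pacemaker calcium channel genes Cacna1d (8.67, others up to 7.51) and Cacna2d2 (9.43, up to 9.22), the transcription factor gene Tbx3 (7.31, up to 7.20), the potassium channel gene Kcnj3 (6.998, up to 6.90), the growth factor gene Bmp4 (8.82, up to 8.76), the G protein regulator gene Rgs6 (8.08, up to 7.76) and Smoc2 (7.83, up to 7.81). The mean of that list was 7.98 on this array and 7.18 to 7.72 on the other 26. The share of all genes that were highest on this array is not given here, so the counts are a description. Without it the Nkx2-5+/- difference of Shox2 was -0.66 (limma adjusted p = 0.0336), and the interactions were 1.17 for Shox2 (adjusted p = 0.0327) and 1.08 for Vsnl1 (adjusted p = 0.0315), so these 3 calls were kept.

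**Figure D4:**
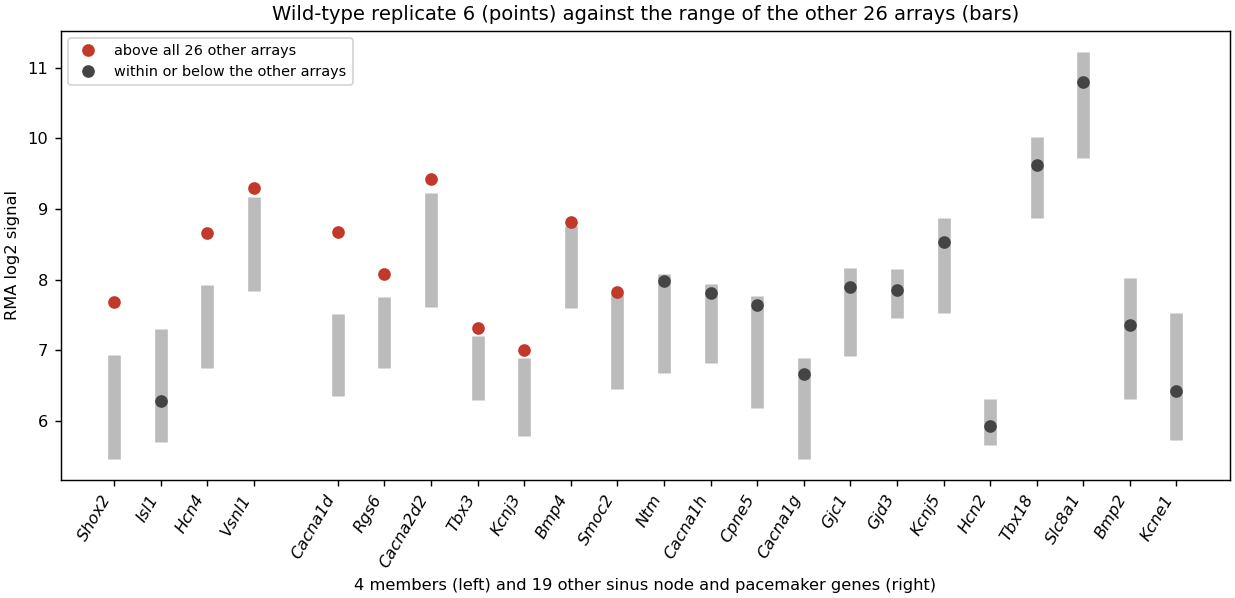
RMA log2 signal on wild-type replicate 6 (points) against the range of the other 26 arrays (grey bars) for the 4 members on the left and the 19 other sinus node and pacemaker genes on the right; red points lie above all other arrays. Shox2, Hcn4, Vsnl1 and 7 of the 19 other genes are red, with Cacna1d (8.67 against at most 7.51) farthest from its bar; heights are not comparable between genes.

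Isl1 had its own separate array. On Brg1+/- replicate 3 it read 7.30, above the 6.92 reached by the other 26 arrays, and 6 of 10 measured genes of neurons and neural crest were also above all others there. Stmn2, a neuronal microtubule regulator, read 8.08 against at most 6.41, the neuronal tubulin gene Tubb3 7.495 against at most 6.51, the peripherin gene Prph 7.03 against at most 6.13 and the receptor gene Ret 6.57 against at most 5.96. The list averaged 6.46 on this array and 5.47 to 5.87 on the others. Here too the share of all genes that were highest on the array is not given. Its part in the Isl1 value was not tested. Leaving the array out moved the Isl1 difference of Brg1+/- from wild type from -0.20 to -0.37, still uncalled. Foregut and pharyngeal epithelium genes, of tissue beside the heart, averaged 5.98 to 6.55 over all 27 arrays. In Nkx2-5+/- against wild type 1 of 10 of them rose, the signalling gene Shh (0.38, limma adjusted p = 0.022), with 7 above 0 and a median of 0.16. That count is near the 7.89% of all genes called in this comparison.

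The other genes of the sinus node programme were read from a list of 20, of which 19 were measured. In Nkx2-5+/- against wild type 5 of 19 fell and 0 rose, 18 were below 0 and the median log2 difference was -0.31, against a median of -0.01 over all genes. Those that fell were Ntm, a cell adhesion gene (-0.70, limma adjusted p = 0.00703), Bmp4 (-0.61, adjusted p = 0.0102), the potassium channel subunit gene Kcne1 (-0.82, adjusted p = 0.0123), Cpne5 (-0.86, adjusted p = 0.0137) and Rgs6 (-0.61, adjusted p = 0.0205). In the Nkx2-5 by Brg1 interaction 4 of 19 rose and 0 fell, with 18 above 0 and a median of 0.67 against 0.03 over all genes. These were Bmp4 (0.97, adjusted p = 0.0166), Rgs6 (0.98, adjusted p = 0.0223), Ntm (0.81, adjusted p = 0.0268) and Cpne5 (1.01, adjusted p = 0.0456). Without the 2 arrays against their label 12 fell in Nkx2-5+/- and 13 rose in the interaction, in fits that called 21.8% and 16.3% of all genes, against 7.89% and 4.95% with all arrays. With the red blood cell covariate 0 did in either, in a fit that called 4 and 0 genes.

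Elsewhere none of the 19 passed the threshold. In Brg1+/- 18 were below 0 with a median of -0.26, and the smallest p-values belonged to Bmp4 (-0.41, limma adjusted p = 0.399) and Cpne5 (-0.54, adjusted p = 0.418). In Tbx5+/- 12 were below 0 with a median of -0.12, led by Tbx3 (-0.39) and the growth factor gene Bmp2 (-0.50), both at an adjusted p of 1. In Tbx5+/- Brg1+/- 16 were below 0 with a median of -0.25, led by Cacna2d2 (-0.67) and Tbx3 (-0.37), both at an adjusted p of 0.979. In Nkx2-5+/- Brg1+/- 11 were below 0 and the median was -0.04. The smallest p-values there were those of Tbx18 (0.48, adjusted p = 0.55) and Kcne1 (-0.45, adjusted p = 0.655). Tbx18, a transcription factor of the sinus horn, is also on the epicardial list, where 6 of 6 genes were above 0 (median 0.34). Array means of the list ran from 7.58 to 7.98 for wild type, 7.24 to 7.61 for Brg1+/-, 7.53 to 7.59 for Tbx5+/-, 7.18 to 7.72 for Nkx2-5+/-, 7.4 to 7.5 for Tbx5+/- Brg1+/- and 7.64 to 7.71 for Nkx2-5+/- Brg1+/-. The highest of the 4 Nkx2-5+/- arrays, at 7.72, was the library that went against its label.

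**Figure D5:**
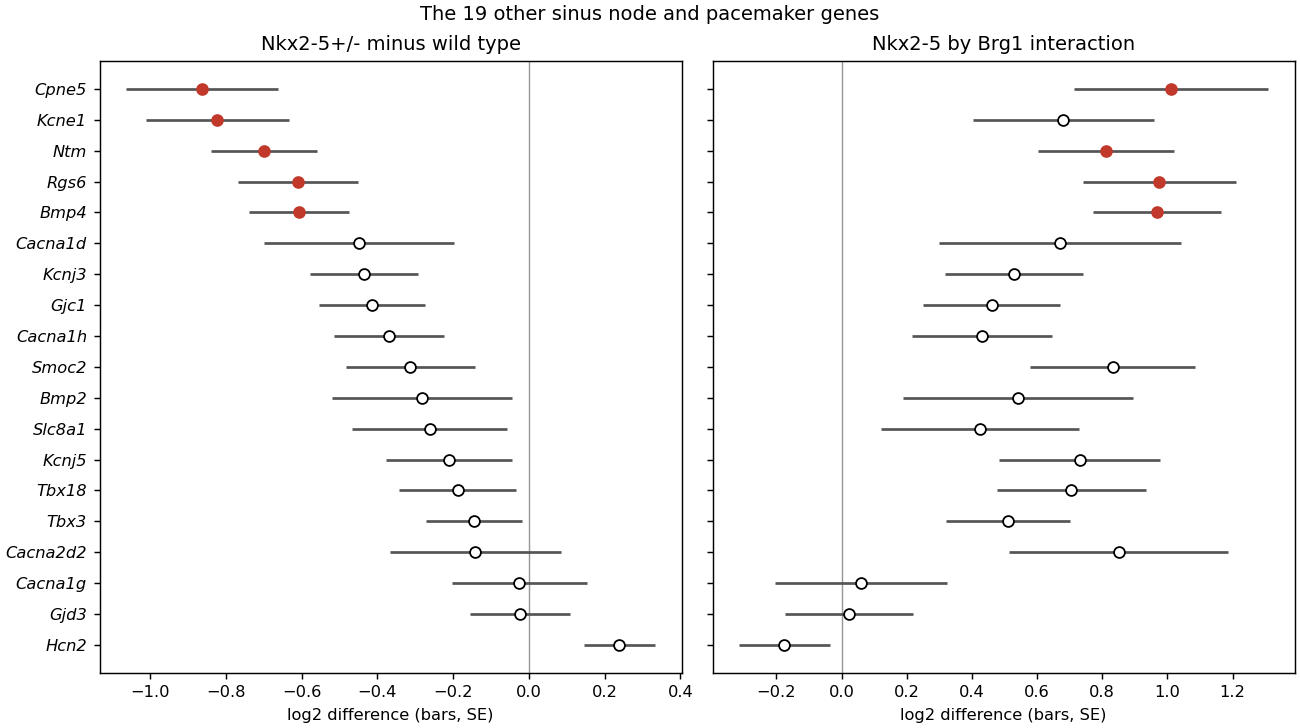
Log2 differences (points, bars are SE) of the 19 other sinus node and pacemaker genes in Nkx2-5+/- against wild type (left) and in the Nkx2-5 by Brg1 interaction (right); red points passed an adjusted p of 0.05. On the left 5 genes are red and 18 lie below 0, and on the right 4 are red and 18 lie above 0.

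Genes that the sinus node factors oppose or work beside were listed for comparison. Their counts stand beside 7.89% of all genes called in Nkx2-5+/- against wild type and 4.95% in the Nkx2-5 by Brg1 interaction. Of 10 measured working myocardium genes 4 fell in Nkx2-5+/-: Smpx, a small muscle protein (-0.78, limma adjusted p = 0.00332), Nkx2-5 itself (-0.85, adjusted p = 0.007), the potassium channel gene Kcnj2 (-0.71, adjusted p = 0.0177) and the natriuretic peptide gene Nppa (-0.78, adjusted p = 0.0328). All 10 were below 0 there, with a median of -0.34, so the chamber muscle genes lay on the same side as the sinus node genes. Nkx2-5 is counted in both numbers although it is the deleted gene, so its own fall tells nothing about the list. In the interaction Smpx rose (0.76, adjusted p = 0.0289) and the median was 0.51. Tbx5, which is not on this list, also fell in Nkx2-5+/- (-0.49, adjusted p = 0.0225) and rose in the interaction (0.88, adjusted p = 0.0189). In Brg1+/- against wild type it was at -0.45 (adjusted p = 0.328), uncalled. In Tbx5+/- Brg1+/- Gja5, the gap junction gene of atria and fast conduction, was at -1.10 (adjusted p = 0.102), uncalled. Of 13 measured second heart field genes and Isl1 partners, 2 fell in Nkx2-5+/-, the transcription factor genes Gata6 (-0.52, adjusted p = 0.017) and Hand2 (-0.39, adjusted p = 0.0402), and the same 2 rose in the interaction (0.82, adjusted p = 0.0209, and 0.65, adjusted p = 0.0318). Of 8 measured paralogs of the members, 0 passed in either. The smallest p-values were those of Ncs1, a calcium sensor related to Vsnl1 (-0.53 in Nkx2-5+/-, adjusted p = 0.0767), and Hcn2, a second pacemaker channel (0.24, adjusted p = 0.114).

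Genes of atrial muscle, which borders the sinus node, also passed the threshold in these comparisons. Over all genes the fit called 7.89% in Nkx2-5+/- against wild type and 4.95% in the interaction. Of 6 atrial genes 3 fell in Nkx2-5+/-, Stard10 (-0.46, limma adjusted p = 0.0208), the nuclear receptor gene Nr2f1 (-0.60, adjusted p = 0.0273) and the atrial light chain gene Myl4 (-0.37, adjusted p = 0.0281), and 3 rose in the interaction, Stard10 (0.87, adjusted p = 0.0166), Nr2f1 (1.07, adjusted p = 0.0199) and Nr2f2 (0.86, adjusted p = 0.0209). The atrial list averaged 9.15 to 9.42 in Nkx2-5+/-, 8.88 to 9.53 in Brg1+/-, 9.43 to 9.76 in wild type and 9.56 to 9.78 in Nkx2-5+/- Brg1+/-. Of 6 epicardial genes 1 fell in Nkx2-5+/- (Tcf21, -0.45, adjusted p = 0.0189) and 2 rose in the interaction (Tcf21, 0.84, adjusted p = 0.0166, and Upk3b, 0.79, adjusted p = 0.0209). Their list averaged 9.42 to 9.92 in wild type, 8.96 to 9.64 in Nkx2-5+/- and 9.91 to 9.95 in Nkx2-5+/- Brg1+/-. With the atrial minus the ventricular mean as a covariate the interaction of Shox2 was 1.26 (limma adjusted p = 0.0136). Both lists lay above 0 in the interaction (medians 0.78 atrial and 0.68 ventricular), so their difference does not capture a shift that they share. The part of tissue make-up in the members' differences was not tested.

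Within a genotype, Shox2 and Hcn4 varied together from array to array. Over the deviations of 27 arrays from their group means, Pearson's r was 0.66 (permutation p = 0.0052, adjusted p = 0.031 over the 6 pairs of members) and Spearman's rho was 0.45 (permutation p = 0.033, adjusted p = 0.14). Without the 2 arrays farthest from the median of Shox2 r was 0.46, and without wild-type replicate 6 it was 0.52, so part of the value rests on that array. Shox2 and Vsnl1 gave r = 0.47 (permutation p = 0.044, adjusted p = 0.13) and rho = 0.44 (p = 0.045, adjusted p = 0.14), with r = 0.46 without the 2 farthest arrays. Hcn4 and Vsnl1 gave r = 0.38 (permutation p = 0.091) and 0.08 without the 2 farthest arrays. Isl1 with Vsnl1 gave r = -0.37 (permutation p = 0.13), with Shox2 0.11 (p = 0.62) and with Hcn4 0.02 (p = 0.92), the last being 0.40 without wild-type replicate 6. The members share the RNA and the hybridisation of each array.

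The genes whose signal was most like that of each member over the 27 arrays were taken by Pearson's r among all 19935 genes, as a description. For Hcn4 the most alike was Cacna2d2, a calcium channel subunit gene of the sinus node list (r = 0.89, and 0.87 without wild-type replicate 6), followed by Adamts19 (0.81), Cdh24 (0.79), Cacna1d (0.79) and Mast4 (0.79). Without that array r was 0.64 for Adamts19, 0.66 for Cdh24, 0.49 for Cacna1d and 0.65 for Mast4. For Shox2 they were Fbxo32 (0.79), Gnao1 (0.79), Rgs6 (0.77), Adm (0.77) and Adamts8 (0.72), and for Vsnl1 Rgs6 (0.74), Il1rl2 (0.73), Kcnj5 (0.70), Adamts19 (0.68) and Wnt2 (0.68), with values without wild-type replicate 6 from 0.61 to 0.75. Rgs6 was thus named for both Shox2 and Vsnl1, and Adamts19 for both Hcn4 and Vsnl1. Isl1 was most like Zbtb2 (0.67), Ano3 (0.67), Hoxc11 (0.66), Mybpc1 (0.65) and Elavl4 (0.63), an RNA-binding protein gene of neurons whose r was 0.45 without Brg1+/- replicate 3.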

How the data were processed

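Expression was measured on 27 Affymetrix arrays of E11.5 mouse hearts. The deposited values are log2 signals per probe set, which the authors computed by RMA; the submitters' processing notes name Affymetrix Power Tools, with versions and genome build not given in the sources used here. RMA forces the arrays to like distributions and compresses folds of dim probe sets. Probe sets were named through GEO's platform annotation: of 28815, 21780 had 1 symbol, 1605 several and 5430 were unnamed here. Where a gene had several probe sets (998 genes), that of highest mean was used, leaving 19935 genes without a filter.

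limma 3.58.1 (R 4.3.3) was fitted once to all 27 arrays with a mean per genotype (lmFit, contrasts.fit, eBayes, no trend, two-sided), Benjamini-Hochberg adjusted within each of 11 comparisons and called at an adjusted p of 0.05. An interaction is the Brg1 difference on 1 background minus that in wild type. Correlations were tested with 100000 two-sided permutations within genotype. The fit was tested on simulated data. The precision is limited by the number of arrays. The labels give no batch, and whether same-numbered replicates pair was not tested (mean correlation 0.03, against -0.007 for other pairs).

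The members and gene lists were chosen with earlier results of these data known. Named genes were the members, the targeted genes, the 5 most alike genes per member (predicted genes and clones left out) and, per list, up to 4 called genes of smallest p or otherwise up to 2 uncalled; for Nkx2-5+/- the fifth sinus node gene called, Rgs6, and for the single arrays the genes above all others were named after their values were seen. Further gene lists, listed beside the results, were handled alike. Alternatives covered scaling, probe set choice, priors, array weights, covariates, the replicate block and left-out arrays. Promoter windows come from RefSeq (GRCm38.p6).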

Additional observations from a re-analysis of the deposited data

Results flagged for a closer look

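Of the 16 groups of 4 or more arrays tested over the 4 genes, 2 held an array far from the rest, where chance flags about 1 in 20 groups. Wild-type replicate 6 had a Shox2 value of 7.68, with a gap to its nearest neighbour of 0.756 of the group's range, above the critical ratio of 0.625. The same array had an Hcn4 value of 8.66, with a gap of 0.728 of the range.

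The limma interaction term of Brg1 with Nkx2-5 passed the threshold for 2 genes, which were picked with results of these arrays known. For Shox2 the effects differed by 1.31 (adjusted p = 0.0203) and for Vsnl1 by 1.16 (adjusted p = 0.0189), on the log2 scale. Both calls were lost with the red blood cell covariate (adjusted p = 1 for Shox2 and 0.931 for Vsnl1), in the 4 groups alone (adjusted p = 0.0505 for each) and without Nkx2-5+/- replicate 2, Nkx2-5+/- Brg1+/- replicate 1 or Nkx2-5+/- Brg1+/- replicate 2.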

How the results depend on the processing

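No count of called members changed under further quantile normalization, equalised array medians, the mean of probe sets, all probe sets, the trended robust prior, the dimmest genes removed or the replicate block. Counts of called members moved as follows. With array weights, 2 members were called in Nkx2-5+/- against wild type and 2 in Nkx2-5+/- Brg1+/- against Nkx2-5+/-, 1 in Tbx5+/- Brg1+/- against wild type (Vsnl1) 3 in Nkx2-5+/- Brg1+/- against Brg1+/- and 3 in the Nkx2-5 by Brg1 interaction (Hcn4 added, 0.68, adjusted p = 0.04). With the red blood cell covariate or the compared groups alone, 0 were called in Nkx2-5+/- against wild type and 0 in the Nkx2-5 by Brg1 interaction. Without the arrays against their label, 2 were called in Nkx2-5+/- against wild type and 2 in Nkx2-5+/- Brg1+/- against Nkx2-5+/-. With the atrial minus ventricular covariate, 1 was called in Brg1+/- against wild type (Vsnl1, -0.67, adjusted p = 0.0423). Leaving out 1 array at a time gave 0 to 2 in Nkx2-5+/- against wild type, 0 to 2 in Nkx2-5+/- Brg1+/- against Nkx2-5+/- and 0 to 2 in the Nkx2-5 by Brg1 interaction. The cause of these moves was not tested.

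Estimates that changed sign were small and uncalled. With the replicate block Hcn4 in Nkx2-5+/- against wild type was 0.015, Isl1 in Tbx5+/- Brg1+/- against wild type 0.039, Vsnl1 in Nkx2-5+/- Brg1+/- against wild type -0.046 and Isl1 in Nkx2-5+/- Brg1+/- against Brg1+/- 0.058. With the red blood cell covariate Hcn4 was 0.05 in Nkx2-5+/- against wild type and -0.001 in Nkx2-5+/- Brg1+/- against Nkx2-5+/-, and the Isl1 interaction with Nkx2-5 was -0.13. Array weights put that interaction at -0.007, and the atrial minus ventricular covariate put Isl1 in Nkx2-5+/- Brg1+/- against Brg1+/- at 0.19. Without the arrays against their label Isl1 was 0.016 in Tbx5+/- Brg1+/- against wild type and 0.05 in Nkx2-5+/- Brg1+/- against Nkx2-5+/-, and Shox2 was -0.035 in Tbx5+/- Brg1+/- against Tbx5+/- and -0.018 against Brg1+/-. Leaving out 1 array at a time gave ranges of -0.25 to 0.10 (Hcn4, Nkx2-5+/- against wild type), -0.10 to 0.026 (Isl1, Tbx5+/- Brg1+/- against wild type), -0.20 to 0.002 (Shox2), -0.009 to 0.28 (Hcn4) and -0.076 to 0.11 (Vsnl1, all in Nkx2-5+/- Brg1+/- against wild type), -0.035 to 0.28 (Shox2, Tbx5+/- Brg1+/- against Tbx5+/-), -0.21 to 0.069 (Isl1, Nkx2-5+/- Brg1+/- against Nkx2-5+/-), -0.018 to 0.30 (Shox2, Tbx5+/- Brg1+/- against Brg1+/-), -0.16 to 0.16 (Isl1, Nkx2-5+/- Brg1+/- against Brg1+/-) and -0.009 to 0.31 (Isl1 interaction with Nkx2-5). Same-numbered arrays had a mean correlation of 0.03 (55 pairs) and other pairs of -0.007 (244 pairs), and 8 of 27 arrays correlated best with their own number. These values are a description, and whether the numbers pair the samples was not tested.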
